A study of Mus musculus with 2 samples.

Results

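Interferon-stimulated genes were examined in single cells of gonadal white adipose tissue (gWAT) of 18-month-old mice. The list holds 39 genes, taken by symbol, and 38 of them are among the 31054 genes of the count tables, with Mx2 as the exception. They were described in stromal cells, which hold the adipocyte progenitor cells (APCs), and in mesothelial cells, the sheet of cells that lines the fat pad. All cells came from p16-CreERT2/R26-LSL-tdTomato mice, in which a tamoxifen-activated Cre driven by the p16 promoter switches on the red reporter tdTomato. Per the study's methods, males were used and tamoxifen was injected before the tissue was taken. Cells negative for the endothelial marker CD31 and the immune marker CD45 were sorted into reporter-positive (Tom+) and reporter-negative (Tom-) cells, and both groups share genotype, age and tamoxifen. Each group is 1 droplet library, and the number of mice behind it is not given in the sources used here. Reporter status and library therefore cannot be told apart, cells of 1 library are not replicates, and no test between groups could be run. All intervals below cover counting error only. They are exact 95% intervals, except that the interval of a median is the median of its members' bounds.

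Interferons are secreted proteins, and those of type I and type III are made by cells that sense viral or misplaced nucleic acid. Type I and type III interferons act through receptor-bound Jak kinases on a complex that holds Stat2 and Irf9 and binds the interferon-stimulated response element (ISRE) in front of their target genes. Type II interferon acts on the gamma-activated site (GAS). The products of these target genes sense foreign RNA and DNA, block translation, trap viruses at membranes and tag proteins. Activity of the same genes is also known without infection, including in senescent cells.

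The promoters of several members show these elements, and 7 stretches are printed as examples. They are not ranked by the differences below, where Isg15 and Rsad2 are among the members that differ most in some comparisons. Gbp2 also holds an ISRE match, which is not printed, and Oasl2, Oasl1, Ifi44, Irf7 and Ifitm1 hold none. The printed stretches come from RefSeq on build GRCm38.p6, read 5′ to 3′ on the strand of the gene, and lie upstream of the gene's start. Capitals mark a match to the ISRE letters GAAANNGAAA, searched on both strands.
Ifit1, chr19:34640784-34640833, plus strand: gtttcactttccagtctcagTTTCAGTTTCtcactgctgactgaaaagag
Ifit3, chr19:34583387-34583436, plus strand: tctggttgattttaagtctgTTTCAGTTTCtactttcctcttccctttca
Ifit3b, chr19:34607783-34607832, plus strand: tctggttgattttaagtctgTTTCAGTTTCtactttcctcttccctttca
Isg15, chr4:156200861-156200910, minus strand: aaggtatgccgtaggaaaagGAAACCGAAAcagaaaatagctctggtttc
Gbp7, chr3:142530263-142530312, plus strand: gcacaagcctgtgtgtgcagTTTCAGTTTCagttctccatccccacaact
Bst2, chr8:71537567-71537616, minus strand: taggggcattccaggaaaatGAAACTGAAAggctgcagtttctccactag
Rsad2, chr12:26456543-26456592, minus strand: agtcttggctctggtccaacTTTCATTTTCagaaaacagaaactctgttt

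The stretches of Ifit3 and Ifit3b are the same letters at neighbouring places of chromosome 19. Of the 39 members, 31 have a promoter in the RefSeq table, which spans 250 bases before to 50 after the start. The ISRE letters stood in 17 of the 31 (54.8%), against 3.99% of all 27025 gene symbols of the table. The GAS letters TTCNNNGAA stood in 8 of the 31 (25.8%), against 9.55% of all symbols. Isg15 held 3 overlapping ISRE matches, and the GAS match of Bst2 overlaps its first ISRE match. Dhx58, Zbp1, Oas2, Mx1, Mx2, Usp18, Parp14 and Rtp4 had no entry. A match is only a string of letters and does not show binding.

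The genes lie in families along the genome. The 4 IFIT genes sit within chr19:34550694-34650009, 5 OAS genes are on chromosome 5, the 3 Gbp genes share chromosome 3 with Ifi44, and Rsad2 and Cmpk2 are neighbours on chromosome 12. Copies within a family can share reads. Of the last 500 bases of the transcript, the part this 3′ assay reads, 56.1% of the 50-base words of Oas1a also occur in another gene (Oas1g). The share was 41.9% for Ifitm2, 14.9% for Ifit3, 14.0% for Ifitm3 and 11.8% for Ifitm1, so the counts of these members are less certain than those of the others.

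The Tom+ library holds 5566 barcodes with 61119807 unique molecular identifiers (UMIs, counts of single RNA molecules), and the Tom- library holds 11838 barcodes with 96872394 UMIs. The study's limits on genes and mitochondrial UMIs left 3524 and 6717 cells. Stromal cells, with under 5 UMIs of Msln, Upk3b, Krt19, Lrrn4 and Upk1b together, numbered 3263 in Tom+ and 4800 in Tom-. Mesothelial cells, with at least 10 such UMIs, numbered 250 and 1887. The mesothelial genes that did not choose the cells (Wt1, Krt8, Krt18, Krt7, Muc16, Bnc1, Rspo1 and Gpm6a) summed to 3392 and 3519 CPM (UMI counts scaled to a total of 1000000) in mesothelial cells and to 223 and 346 CPM in stromal cells, so the label holds by markers it did not use. The 6 stromal markers summed to 29548 and 30351 CPM in stromal cells, and also to 13190 and 14839 CPM in mesothelial cells. The libraries share 2224 barcodes, among them 12.4% of Tom+ stromal, 40.0% of Tom+ mesothelial, 1.56% of Tom- stromal and 11% of Tom- mesothelial cells. In that order, 400 of 404, 99 of 100, 73 of 75 and 203 of 207 had more UMIs in the library named. The median ratio to the other library was 41.7, 43.4, 49.3 and 54.0. Only 9 barcodes were kept in both libraries. The shared Tom+ mesothelial cells had a median of 29790 UMIs, against 18601.5 over all Tom+ mesothelial cells. Immunoglobulin genes took 6.07% of the UMIs of Tom+ stromal cells and 1.59% of those of Tom- stromal cells, although the sort removes CD45+ cells. The macrophage gene Lyz2 stood at 130 and 20.5 CPM there, and the 7 immune markers summed to 413 and 210 CPM. The reporter transcript stood at 211 and 13.1 CPM in Tom+ and Tom- stromal cells, and at 780 and 8.25 CPM in mesothelial cells. In these counts Cdkn2a, the gene of p16, was not higher in Tom+ than in Tom- stromal cells, on 238 and 335 UMIs. The counts are for the whole gene. By qPCR with primers for p16, the paper reports higher p16 mRNA in sorted Tom+ than Tom- APCs of old mice. The Cdkn2a level was 4.66 CPM in the Tom+ library, with an interval of 4.08 to 5.29, and 5.79 CPM in the Tom- library, with one of 5.18 to 6.44. In mesothelial cells the levels were 12.4 (9.59 to 15.8) and 8.47 CPM (7.50 to 9.53).

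Levels of the members spanned a wide range. The plot of levels by library and class shows that most members lay between 10 and 100 CPM in stromal cells. Ifitm3, which keeps viruses from fusing with membranes, stood at 1265 and 1913 CPM in Tom+ and Tom- stromal cells, and its relative Ifitm2 at 791 and 1055 CPM. Bst2, which tethers budding virus to the cell surface, stood at 74.2 and 93 CPM. At the low end, Mx1, Oas2, Oas3 and Ifi44 each had under 50 UMIs in the stromal cells of either library. Mx1, a GTPase that blocks incoming virus, had 46 UMIs in Tom+ and 32 in Tom- stromal cells, and 5 and 4 UMIs in mesothelial cells. Values are compared between cells for 1 gene at a time and not between genes.

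**Figure D1:**
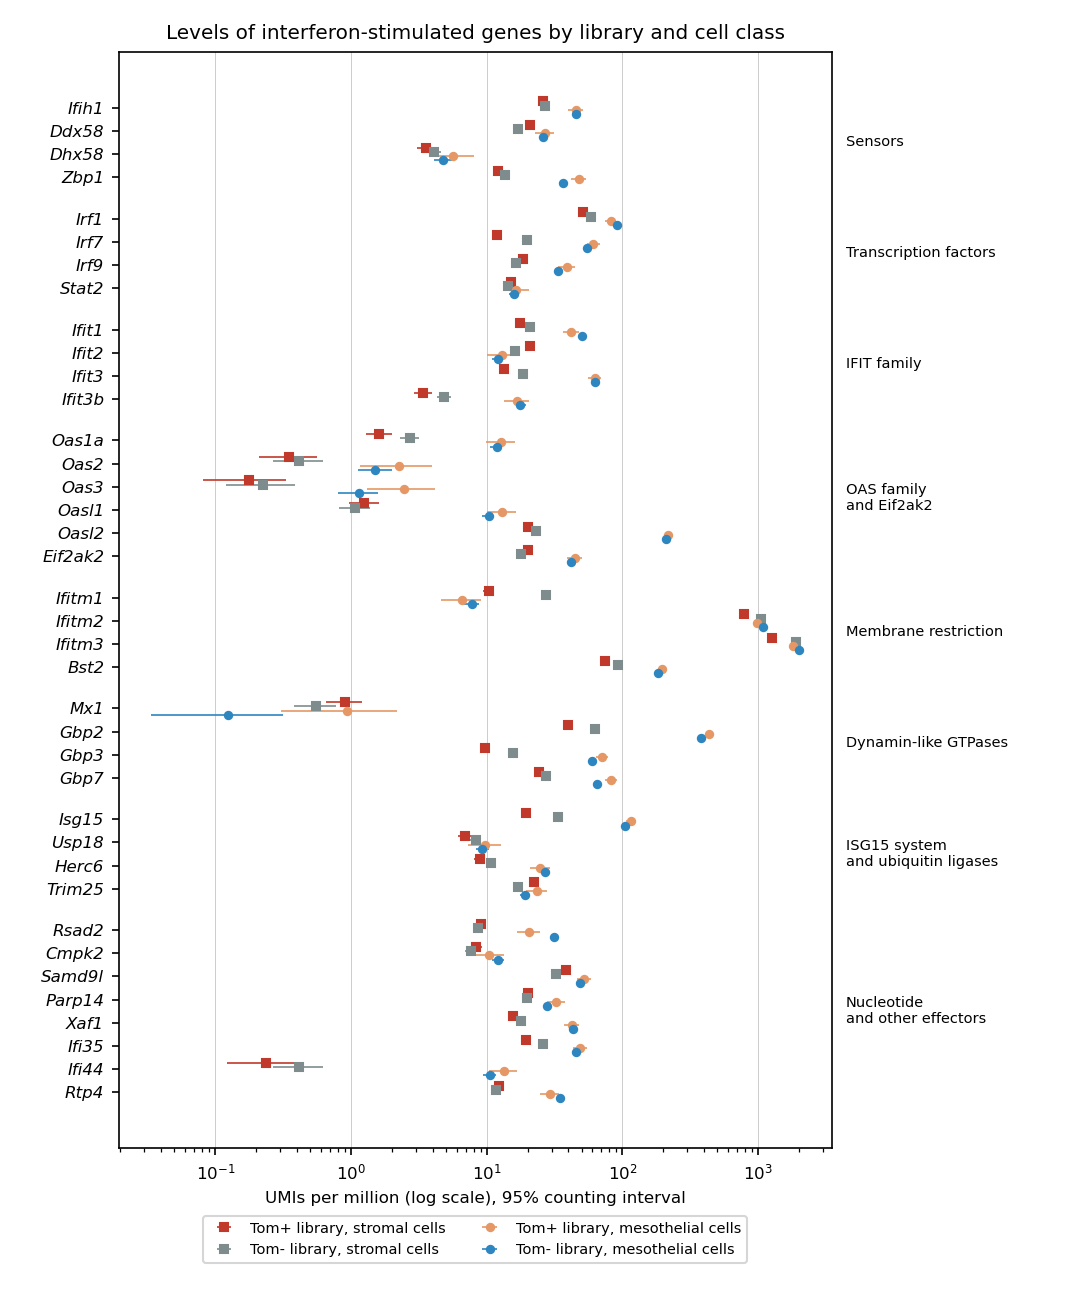
Level of each of the 38 measured interferon-stimulated genes in CPM (log axis) in stromal and mesothelial cells of the Tom+ and Tom- libraries, 1 library per group, with genes ordered by role and bars for the exact 95% counting interval. Ifitm2 and Ifitm3 stand far above the rest, and the mesothelial points of Gbp2 (435 and 381 CPM) and Oasl2 (215 and 210 CPM) lie well to the right of the stromal ones.

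The first comparison asked how the members differ between the cell classes of the same library, which share sorting and preparation. Most members were higher in mesothelial cells, and this held in each library. A floor of 5 CPM on the mean of the compared classes left 34 members. At least 1.5-fold higher in mesothelial cells were 24 of 34 in Tom+, against 22.6% of all genes past the same floor, and 26 of 34 in Tom-, against 21.0%. At least 1.5-fold lower were 2 in Tom+ (16.2% of all genes) and 1 in Tom- (13.9%). Of the 34, Ifit3b, Oas1a, Oasl1 and Ifi44 passed the floor only through the mesothelial cells, where they are high. The counts are therefore also given for the 30 members with at least 5 CPM on each side, a limit chosen after seeing the data. Of these, 28 were higher in mesothelial cells in each library, 20 (66.7%) by at least 1.5-fold in Tom+, against 18.9% of all genes with that level on each side, and 22 (73.3%) in Tom-, against 17.4%. Their median log2 ratio of mesothelial over stromal cells was 1.15 in Tom+ and 1.01 in Tom-, whereas that of all such genes was 0.10 and 0.12. With the 34 members the median was 1.25 (1.0 to 1.48) and 1.24 (1.12 to 1.35). Dhx58, Oas2, Oas3 and Mx1 were under the floor. Scaled by the median ratio of all genes in place of total UMIs, Trim25 in Tom+ and Stat2, Ifitm2 and Ifitm3 in Tom- changed sign. No other member above the mean floor did.

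**Figure D2:**
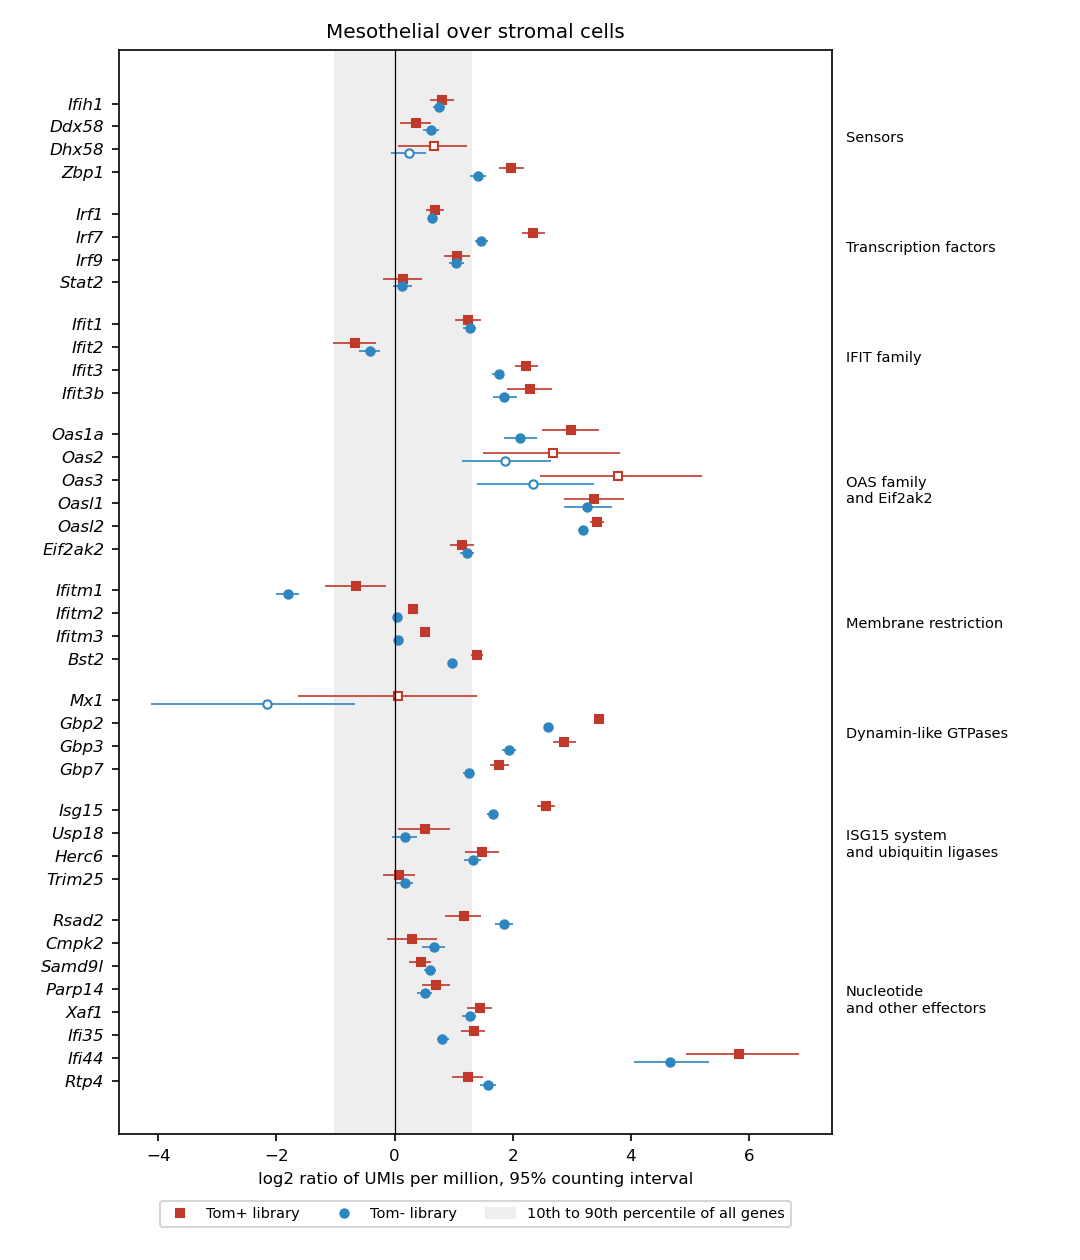
Log2 ratio of mesothelial over stromal cells for each interferon-stimulated gene, within the Tom+ (squares) and the Tom- library (circles), with exact 95% counting intervals, open symbols for genes under the floor, and a grey band from the 10th to the 90th percentile of all genes (at each end, the wider of the 2 comparisons). Most points lie to the right of 0. Of the genes with at least 5 CPM in both classes, Gbp2 (3.46) lies furthest right in Tom+ and Oasl2 (3.19) in Tom-, Ifi44 (5.83 and 4.66) is near 0 CPM in stromal cells, and Ifitm1 (-0.65 and -1.80) and Ifit2 (-0.67 and -0.42) lie to the left.

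The guanylate-binding proteins, GTPases that coat and break open pathogen compartments, stood out. Gbp2 was at 39.5 CPM in Tom+ stromal, 62.8 in Tom- stromal, 435 in Tom+ mesothelial and 381 in Tom- mesothelial cells. Gbp3 was at 9.69 and 15.5 CPM in stromal cells and at 71.0 and 59.2 CPM in mesothelial cells. Gbp7 was at 24.1 and 27.1 CPM against 82.3 and 64.8 CPM. All 3 were thus higher in mesothelial cells in each library, by 11-fold (10.4 to 11.7) in Tom+ and 6.07-fold (5.85 to 6.30) in Tom- for Gbp2. The log2 ratios of Gbp3 were 2.87 and 1.93, and those of Gbp7 were 1.77 and 1.26.

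Genes of the 2′-5′ oligoadenylate synthetase family, which bind double-stranded RNA and in part activate an RNA-degrading enzyme, showed the same pattern. Oasl2 had 1020 and 1331 UMIs in Tom+ and Tom- stromal cells, with intervals of 18.8 to 21.2 and 21.8 to 24.3 CPM, and stood at 215 and 210 CPM in mesothelial cells, a difference of 10.8-fold (9.90 to 11.7) and 9.11-fold (8.59 to 9.67). Oasl1 had 64 and 62 UMIs in stromal cells (1.25 and 1.07 CPM) and stood at 13.0 and 10.3 CPM in mesothelial cells. Oas1a was at 1.62 and 2.70 CPM against 12.8 and 11.8 CPM. Their log2 ratios were 3.37 and 3.26 for Oasl1 and 2.98 and 2.13 for Oas1a. Eif2ak2 encodes the kinase PKR, which halts translation on double-stranded RNA, and it was at 20.1 and 17.8 CPM in stromal against 44.3 and 41.4 CPM in mesothelial cells. Oas2 and Oas3 had at most 49 UMIs in any class, and their log2 ratios were 2.68 and 1.87, and 3.79 and 2.35.

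Within the IFIT family, whose proteins bind foreign RNA ends, members went different ways. Ifit3 was at 13.3 and 18.6 CPM in Tom+ and Tom- stromal cells and at 62.6 and 62.8 CPM in mesothelial cells. Ifit3b had 3.40 and 4.87 CPM against 16.7 and 17.7 CPM, and Ifit1 had 17.6 and 20.8 CPM against 41.7 and 50.3 CPM. Ifit2 was the exception, at 20.7 and 16.2 CPM in stromal cells and 13.0 and 12.1 CPM in mesothelial cells, a log2 ratio of -0.67 (-1.05 to -0.32) and -0.42 (-0.60 to -0.25). The plot of mesothelial over stromal ratios shows Ifit2 apart from the other IFIT genes.

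Isg15, a ubiquitin-like protein that is attached to other proteins, stood at 19.5 and 33.2 CPM in Tom+ and Tom- stromal cells and at 115 and 104 CPM in mesothelial cells. Its log2 ratio was 2.56 (2.41 to 2.71) in Tom+ and 1.66 (1.57 to 1.74) in Tom-. Its partners differed less. Usp18, the enzyme that removes Isg15 and damps the type I receptor, had 6.87 and 8.26 CPM in stromal and 9.77 and 9.30 CPM in mesothelial cells, with an interval that included 0 in Tom- (-0.04 to 0.38). Herc6, a ligase for Isg15, had 8.86 and 10.8 CPM against 24.8 and 26.8 CPM. Trim25, a ubiquitin ligase of the Ddx58 pathway, had 22.1 and 16.9 CPM against 23.3 and 19.1 CPM.

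Among the transcription factors, Irf7, which amplifies type I interferon production, was at 11.9 and 19.7 CPM in Tom+ and Tom- stromal cells and at 61.1 and 54.6 CPM in mesothelial cells. This was 5.12-fold (4.46 to 5.86) and 2.78-fold (2.58 to 2.99). Irf9 was at 18.6 and 16.3 CPM against 38.7 and 33.6 CPM, and Irf1 at 50.8 and 58.5 CPM against 81.7 and 90.5 CPM. Stat2, the partner of Irf9, differed little, at 15.0 and 14.4 CPM against 16.5 and 15.8 CPM, and its interval included 0 in both libraries (-0.20 to 0.46 and -0.03 to 0.29).

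The RNA sensors Ifih1 and Ddx58 bind double-stranded RNA, and Zbp1 senses left-handed nucleic acid. Zbp1 was at 12.1 and 13.7 CPM in stromal cells and at 47.5 and 36.3 CPM in mesothelial cells. Ifih1 was at 25.8 and 26.7 CPM against 45.1 and 45.1 CPM. Ddx58 was at 20.8 and 17 CPM against 26.7 and 26.0 CPM. The log2 ratios were 1.97 and 1.41 for Zbp1, 0.81 and 0.76 for Ifih1, and 0.36 and 0.61 for Ddx58. Dhx58, a relative that lacks signalling domains, had 3.56 and 4.06 CPM against 5.64 and 4.79 CPM, under the floor.

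The membrane proteins did not all go one way. Bst2 stood at 74.2 and 93 CPM in stromal against 194 and 184 CPM in mesothelial cells. Ifitm3 stood at 1265 and 1913 CPM against 1801 and 1989 CPM, and Ifitm2 at 791 and 1055 CPM against 987 and 1084 CPM. Ifitm1 went the other way, at 10.3 and 27.1 CPM in stromal against 6.58 and 7.76 CPM in mesothelial cells. Its log2 ratio was -0.65 (-1.18 to -0.15) in Tom+ and -1.80 (-2.0 to -1.61) in Tom-.

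Of the remaining effectors, Ifi44 had few stromal UMIs, so it passed the floor only through its mesothelial level. It had 12 UMIs in Tom+ and 24 in Tom- stromal cells, and 71 and 339 UMIs in the fewer mesothelial cells, that is 0.235 and 0.415 CPM against 13.3 and 10.5 CPM. Its fold was 56.8 (30.6 to 115) and 25.3 (16.7 to 40.0). Rsad2 encodes viperin, which makes a chain-terminating nucleotide, and was at 9.02 and 8.62 CPM against 20.3 and 31.2 CPM. Cmpk2, its neighbour on chromosome 12 and a nucleotide kinase, was at 8.38 and 7.65 CPM against 10.3 and 12.1 CPM, with an interval that included 0 in Tom+ (-0.13 to 0.71). Rtp4, Xaf1 and Ifi35 had log2 ratios between 0.81 and 1.58. Parp14 had 0.70 and 0.51, and Samd9l 0.44 and 0.60.

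Shares of cells with a UMI were set at equal depth by thinning every cell to 5000 UMIs, which left out 119 Tom+ and 253 Tom- stromal cells and 31 Tom- mesothelial cells. Gbp2 was seen in 16% of Tom+ and 20.6% of Tom- stromal cells, and in 74.0% and 71.0% of mesothelial cells. Oasl2 was seen in 8.02% and 9.50% of stromal and in 59.6% and 58.4% of mesothelial cells. Without thinning the shares of Oasl2 were 20.7% and 18.9%, and 88.0% and 85.5%. As a gauge of free RNA, the 5 endothelial genes listed were seen in 0.127% (Cdh5) to 1.49% (Flt1) of thinned Tom+ stromal cells and in 0.132% to 1.34% of Tom- stromal cells, at median depths of 14235 and 11270 UMIs before thinning. In mesothelial cells these genes went both ways and gave no common level of free RNA. Pecam1 was seen in 1.27% and 1.23% of stromal and in 4.0% and 3.72% of mesothelial cells. Kdr was seen in 0.541% and 0.880% of stromal and in 36.0% and 23.7% of mesothelial cells. Cdh5, Emcn and Flt1 were lower in mesothelial cells, at 0% in Tom+ and at 0.0539%, 0.216% and 0.431% in Tom-. Rsad2, at 1.84% and 1.72% of stromal cells, was above all 5, by little over Flt1 and by far over Cdh5. The 5 mesothelial markers, which stromal cells were chosen to hold few of, give another gauge. They were seen in 0.286% (Lrrn4) to 1.49% (Upk3b) of thinned Tom+ stromal cells. In Tom- stromal cells they were seen in 1.17% (Lrrn4) to 5.23% (Upk3b), and all but Lrrn4 were above Rsad2. Igkc, an immunoglobulin gene, was seen in 91.7% and 56.2% of thinned stromal cells and in 88.8% and 52.7% of mesothelial cells.

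The difference between the classes was also seen with sets of cells left out. Without the cells richest in interferon-stimulated transcripts (defined below), the median log2 ratio was 1.27 in Tom+ and 1.01 in Tom-, with 22 and 23 members at least 1.5-fold higher. Without the shared barcodes it was 1.39 and 1.24. Without cells rich in immunoglobulin or immune markers, an alternative chosen after seeing the data, it was 1.17 and 1.20. For the counts of 22 and 23 members, the number above the floor and the share of all genes are not given. The 7 immune markers summed to 716 and 507 CPM in mesothelial cells, against 413 and 210 CPM in stromal cells. Most of the mesothelial sum was Cd74, an antigen presentation gene, at 411 and 492 CPM against 219 and 146 CPM in stromal cells. In Tom- the other 6 were lower in mesothelial than in stromal cells, among them Cd52 (1.21 against 21.6 CPM) and Ptprc (0.495 against 3.44 CPM). In Tom+ the macrophage genes Lyz2 (275 against 130 CPM) and Adgre1 (18.6 against 6.81 CPM) were higher in mesothelial cells, and Cd52, Cd79a, Cd3e and Ptprc were lower.

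Other genes of the pathway were followed by lists. No interferon gene of the 8 searched passed the floor. Ifng, the type II interferon, had 10 UMIs in the stromal cells of each library and at most 1 in mesothelial cells, and Ifnb1 had 2 UMIs, both in Tom- stromal cells. Ifnk, Ifnl2, Ifnl3, Ifna1, Ifna2 and Ifna4 had 0 UMIs in all 4 groups of cells, which allows up to 0.0587 CPM in Tom+ stromal and 0.564 CPM in Tom+ mesothelial cells. Among receptors, Ifnar2, a chain of the type I receptor, was at 101 and 120 CPM in stromal and 363 and 366 CPM in mesothelial cells, a log2 ratio of 1.85 and 1.61. Its partner Ifnar1 was at 27.6 and 21.2 CPM against 23.3 and 19.6 CPM. Ifnlr1, the specific chain of the type III receptor, had 0 and 8 UMIs in stromal cells and 17 and 79 UMIs in mesothelial cells. Ifngr1, of the type II receptor, was lower in mesothelial cells (log2 ratio -0.50 and -0.76).

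Of the 13 kinases, STATs and regulators, 3 of 12 above the floor were at least 1.5-fold higher and 3 lower in Tom+ mesothelial cells, and 2 and 3 of 11 in Tom-, beside 22.6% higher and 16.2% lower of all genes in Tom+ and 21.0% and 13.9% in Tom-. Irf5 was at 5.36 and 3.66 CPM in stromal against 33.6 and 33.3 CPM in mesothelial cells. Jak1 and Socs3, a feedback inhibitor, were lower in mesothelial cells, with log2 ratios of -0.97 and -1.01 for Jak1 and -1.29 and -1.77 for Socs3. Of the adaptors of nucleic acid sensing, 1 of 8 above the floor passed 1.5-fold upward in each library. Class I antigen presentation genes, many of which respond to interferon, were at least 1.5-fold higher in mesothelial cells in 12 of 12 above the floor in each library, with medians of 1.22 and 0.92. B2m, the shared light chain, was at 889 and 907 CPM in stromal against 1701 and 1664 CPM in mesothelial cells. The 18 genes of the dissociation response, which rise while tissue is digested, had medians of 0.11 and 0.05 in the same contrast but went both ways. In Tom+ 6 (33.3%) were at least 1.5-fold higher and 4 (22.2%) lower, with log2 ratios from -1.43 to 1.79. In Tom- it was 3 (16.7%) and 4 (22.2%), from -1.77 to 1.53.

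The second comparison set Tom+ against Tom- cells, the groups the study sorted. In stromal cells, 30 members passed the floor, of which 19 were lower and 11 higher in Tom+, while 60.5% of all genes were higher. None was at least 1.5-fold higher (3.86% of all genes were), and 6 of 30 were at least 1.5-fold lower, against 3.25% of all genes. The median log2 ratio was -0.20 (-0.33 to -0.07), and that of all genes was 0.07. The counting interval lay below 0 for 18 members and above 0 for 6, with no share of all genes to set beside these counts. Dhx58, Ifit3b, Oas1a, Oas2, Oas3, Oasl1, Mx1 and Ifi44 were under the floor. Scaled by the median ratio of all genes, Stat2, Rsad2 and Parp14 changed from just above 0 to just below it, and the other members kept their sign.

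**Figure D3:**
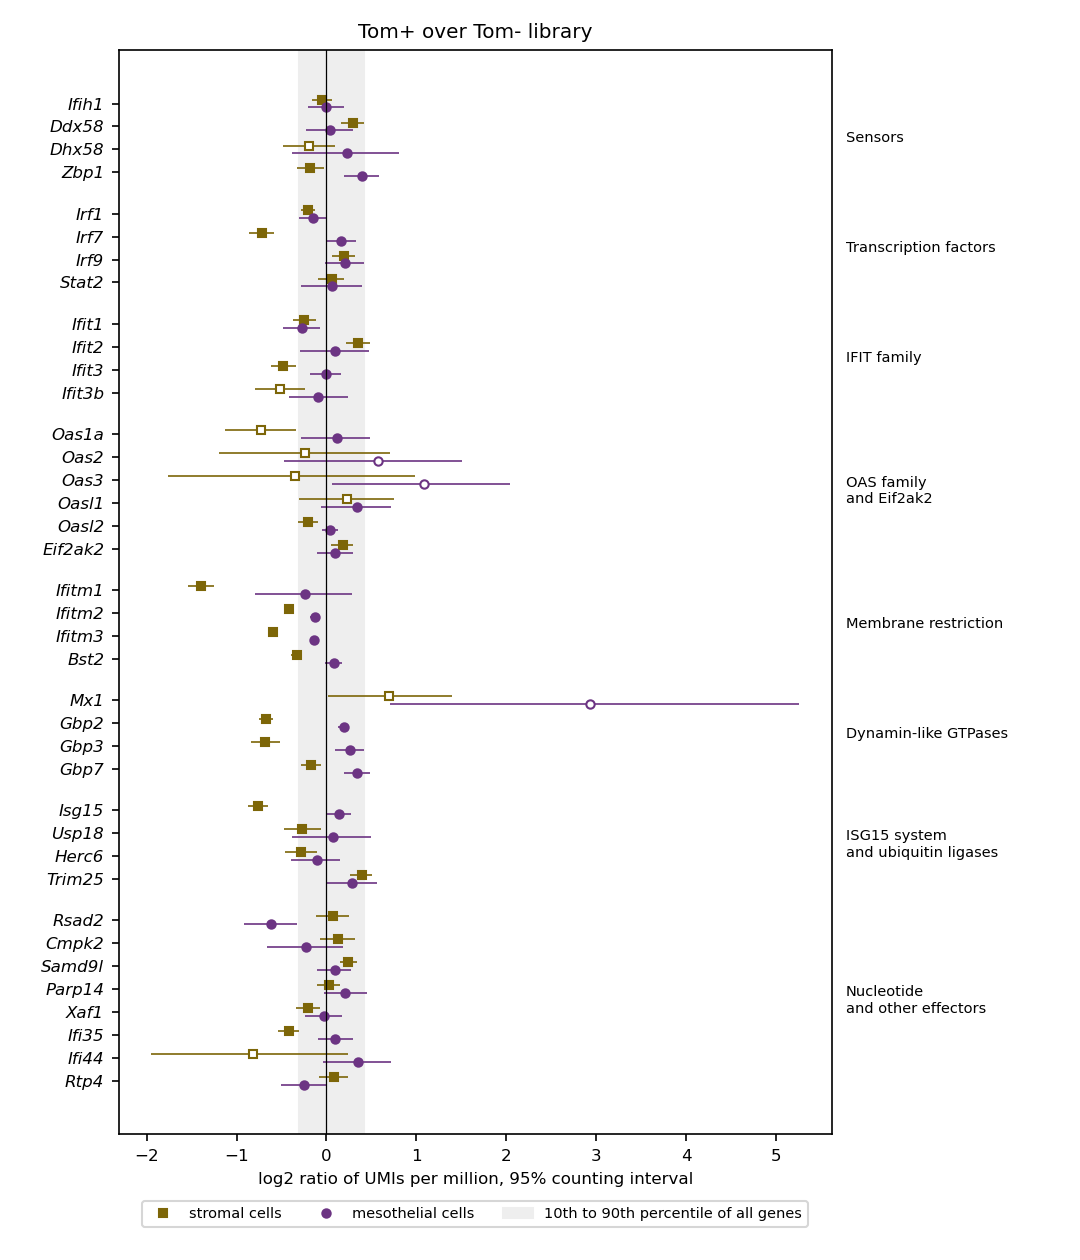
Log2 ratio of Tom+ over Tom- for each interferon-stimulated gene in stromal (squares) and mesothelial cells (circles), from 1 library per group, with exact 95% counting intervals, open symbols for genes under the floor, and a grey band from the 10th to the 90th percentile of all genes (at each end, the wider of the 2 comparisons). Of the filled squares, Ifitm1 (-1.40), Isg15 (-0.76), Irf7 (-0.72), Gbp3 (-0.68), Gbp2 (-0.67) and Ifitm3 (-0.60) lie furthest below 0, and most filled circles lie near 0.

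Ifitm1 differed most, with 10.3 CPM (9.43 to 11.2) in Tom+ stromal cells against 27.1 CPM (25.7 to 28.4) in Tom- stromal cells. Isg15 was at 19.5 CPM (18.4 to 20.8) against 33.2 CPM (31.7 to 34.7), a ratio of 0.589 (0.545 to 0.636). Irf7 was at 11.9 against 19.7 CPM, Gbp2 at 39.5 against 62.8 CPM, Gbp3 at 9.69 against 15.5 CPM and Ifitm3 at 1265 against 1913 CPM. Ifit3 (-0.48), Ifitm2 (-0.42), Ifi35 (-0.42) and Bst2 (-0.33) lay in the same direction by less than 1.5-fold. On the other side, Trim25 (0.39), Ifit2 (0.35), Ddx58 (0.29) and Samd9l (0.24) were a little higher in Tom+. Ifih1, Rsad2, Cmpk2, Parp14, Rtp4 and Stat2 had intervals that included 0. The members were thus split rather than moved as a block.

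These values stood beside other differences between the libraries. Without cells rich in immunoglobulin or immune markers, the stromal median was -0.15 and 4 members stayed at least 1.5-fold lower, with Gbp2 at -0.56 and Ifitm3 at -0.53. The share of all genes past 1.5-fold in these cells is not given. Without shared barcodes the median was -0.16 and Isg15 stood at -0.78 (-0.91 to -0.66). Of the dissociation response genes, 17 of 18 were lower in Tom+ stromal cells, with a median of -0.28. Of the class I presentation genes, 12 of 12 were lower, with a median of -0.30. Of all genes, 60.5% were higher there, with a median of 0.07. The part of these differences in the result was not tested.

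The 6 members that were at least 1.5-fold lower were also described within progenitor states. Interstitial cells, set by Dpp4, Pi16, Cd55, Anxa3 and Sema3c, made up 25.9% of thinned Tom+ and 23.4% of Tom- stromal cells. Preadipocytes, set by Pparg, Lpl, Cd36, Icam1 and Col15a1, made up 56.9% and 64.2%. Isg15 was at 30.1 and 41.7 CPM in Tom+ and Tom- interstitial cells, and at 15.4 and 29.3 CPM in preadipocytes. Irf7 was at 19.7 and 34.0 CPM, and at 9.54 and 15.6 CPM. Ifitm1 was at 11.3 and 31.7 CPM, and at 9.78 and 23.1 CPM. Gbp2 was at 48.5 and 72.9 CPM, and at 40.7 and 60.4 CPM. Gbp3 was at 10.6 and 23.4 CPM, and at 9.23 and 12.4 CPM. Ifitm3 was at 1406 and 2006 CPM, and at 1315 and 1926 CPM. All 6 were lower in Tom+ within each state. They were chosen for being lower over these same stromal cells, so this outcome was largely set beforehand. The part of the mix of states in the result was not tested.

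In mesothelial cells, 35 members passed the floor, and 22 were higher and 13 lower in Tom+, where 56.5% of all genes were higher. Dhx58 (5.64 and 4.79 CPM) passed only through Tom+. With at least 5 CPM on each side, 21 of 34 members were higher and the median was 0.07. For the 35, the median log2 ratio was 0.08 (-0.18 to 0.28), against 0.03 for all genes. None of the 35 was at least 1.5-fold higher (1.87% of all genes), and 1 was at least 1.5-fold lower (1.16%). This was Rsad2, with 20.3 CPM (16.6 to 24.5) in Tom+ against 31.2 CPM (29.3 to 33.1) in Tom-, a log2 ratio of -0.62. Without the shared barcodes, which make up 40.0% of the Tom+ mesothelial cells, its ratio was -0.31 (-0.72 to 0.08). Zbp1 (0.39), Gbp7 (0.34), Gbp3 (0.26), Gbp2 (0.19) and Isg15 (0.14) had intervals above 0 here and below 0 in stromal cells. Macrophage transcripts moved with the library in mesothelial cells too, with Lyz2 at 275 and 10.8 CPM in Tom+ and Tom-, Adgre1 at 18.6 and 0.216 CPM, and Ptprc at 6.39 and 0.495 CPM. Without immunoglobulin-rich or immune cells, which left 234 Tom+ and 1875 Tom- mesothelial cells, the log2 ratios were 0.48 for Zbp1, 0.36 for Gbp7, 0.32 for Gbp3, 0.25 for Gbp2 and 0.22 for Isg15, and all 5 intervals stayed above 0.

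Members differed in how their UMIs were spread over cells. The Fano factor, the variance of thinned counts over their mean and near 1 for random sampling, was 31.4 in Tom+ and 14.9 in Tom- stromal cells for Rsad2 and 12.7 and 10.5 for Ifit1. A single Tom+ stromal cell held 69 of the 162 thinned Rsad2 UMIs. Isg15 had 5.55 and 4.27. Gbp2 had 2.25 and 2.66, Irf7 1.36 and 1.47 and Bst2 1.31 and 1.39. The 1% of stromal cells with most UMIs of a gene held 84.0% and 86.7% of the Rsad2 UMIs, and 10.7% and 10.4% of the Bst2 UMIs. For Ifit1 that share was 71.2% and 70.7%, for Ifit3 54.4% and 61.3% and for Ifit3b 89.7% and 89.5%, but for Ifit2, with a Fano factor of 1.19 and 1.16, only 19.1% and 21.5%. This share is also high for any gene with few UMIs. Oas1a reached 97.1% in Tom+ on 34 UMIs, with a Fano factor of 1.05. The Fano factor was 4.43 and 10.0 for Ifit3 and 3.36 and 4.98 for Ifit3b. With Fano factors well above 1 at low levels, Rsad2, Ifit1, Ifit3 and Ifit3b were thus held by few cells, while Bst2, Ifitm2 and Ifitm3 were spread over many.

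To describe these few cells, Ifit1, Ifit3, Ifit3b, Rsad2, Cmpk2 and Usp18 were summed, and a cell with at least 3 thinned UMIs of these 6 anchors was called anchor-high. Anchor-high cells made up 36 of 3144 Tom+ stromal cells (1.15%, 0.803 to 1.58), 71 of 4547 Tom- stromal cells (1.56%, 1.22 to 1.97), 20 of 250 Tom+ mesothelial cells (8.0%, 4.95 to 12.1) and 137 of 1856 Tom- mesothelial cells (7.38%, 6.23 to 8.67). The mesothelial share was higher in each library, and the Tom+ and Tom- intervals overlapped within each class. These cells held 53.2%, 60.0%, 57.6% and 67.0% of the anchor UMIs of their groups. No anchor UMI was seen in 85.6% and 85.4% of stromal cells and in 66.4% and 64.5% of mesothelial cells. The class is a range of a sum and not a cell type. Just below the limit, at 2 anchor UMIs, were 45, 86, 20 and 111 cells, and at exactly 3 were 13, 24, 9 and 47.

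**Figure D4:**
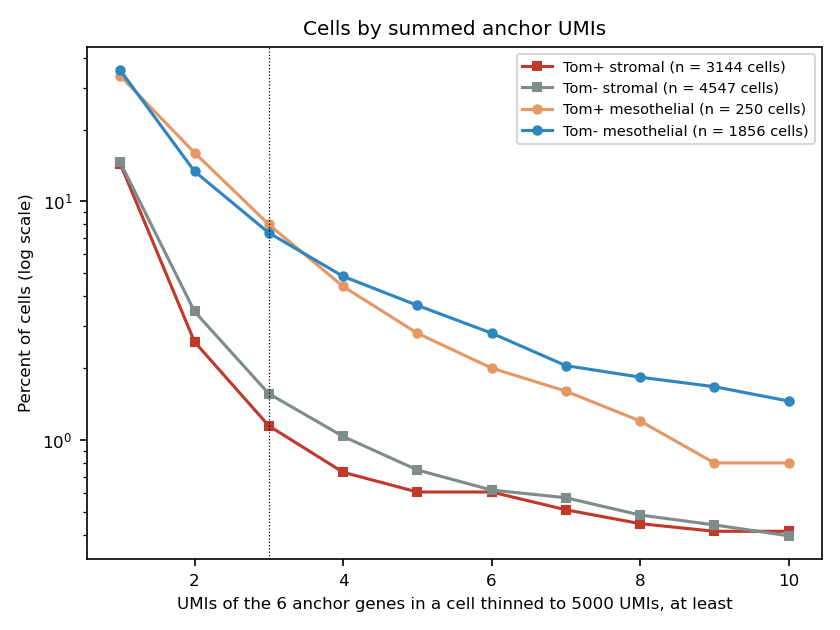
Percent of cells (log axis) with at least the number of summed anchor UMIs on the horizontal axis, for each library and class after thinning to 5000 UMIs, with a dotted line at the limit of 3 UMIs. At that limit the lines stand at 1.15% and 1.56% in stromal and 8.0% and 7.38% in mesothelial cells of Tom+ and Tom-, and the mesothelial lines lie above the stromal ones throughout.

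The 33 members outside the anchors did not choose these cells, and 32 of them are in the files. In stromal cells, 31 of the 32 were higher in anchor-high than in the other cells in each library, 30 with an interval above 0, and Ifitm1 was the exception. In mesothelial cells it was 31 of 32 in Tom+, where Mx1 had 0 UMIs in anchor-high and 5 in other cells, and 32 of 32 in Tom-. Median log2 ratios over the members with UMIs on both sides were 2.95 and 2.55 in Tom+ and Tom- stromal cells and 1.09 and 1.25 in mesothelial cells. To set them beside all genes, those with at least 5 CPM over all cells of the class were taken, a comparison added after seeing the data. Of 25 such members, 21 (84.0%) were at least 2-fold higher in anchor-high stromal cells of each library, against 2.89% (Tom+) and 1.71% (Tom-) of the genes outside the list. In mesothelial cells it was 17 of 29 (58.6%) in Tom+ against 2.23%, and 17 of 28 (60.7%) in Tom- against 0.313%. Isg15 was at 620 CPM in anchor-high and 12.7 CPM in other Tom+ stromal cells, and at 640 and 23.5 CPM in Tom-. Oasl1 was at 43.0 against 0.778 CPM and at 33.3 against 0.588 CPM. Most stromal UMIs of Mx1 were in these cells, 35 of 46 in Tom+ and 23 of 32 in Tom-. Irf7 had log2 ratios of 3.77 and 3.22, Rtp4 3.76 and 3.89, and Stat2 3.10 and 2.78. Ifitm1, Ifitm2, Ifitm3 and Irf1 had the lowest stromal ratios, under 2-fold in each library. Ifitm2 had 0.23 and 0.05, Ifitm3 0.86 and 0.77, and Irf1 0.57 and 0.93. Ifitm1 had 0 UMIs in the 36 Tom+ anchor-high stromal cells, against 10.5 CPM in the other cells, of which 9.52% held a UMI. The upper bound of its log2 ratio was -0.66. That bound takes UMIs as independent, while Ifitm1 had a Fano factor of 1.97 in thinned Tom+ stromal cells. With 36 cells, whether it was lower cannot be told. In Tom- stromal cells its log2 ratio was -0.01 (-0.69 to 0.59). In Tom+ mesothelial cells Ifitm1 had 13 UMIs in anchor-high and 22 in the other cells, a log2 ratio of 2.55 (1.44 to 3.60), against 0.10 in Tom-.

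**Figure D5:**
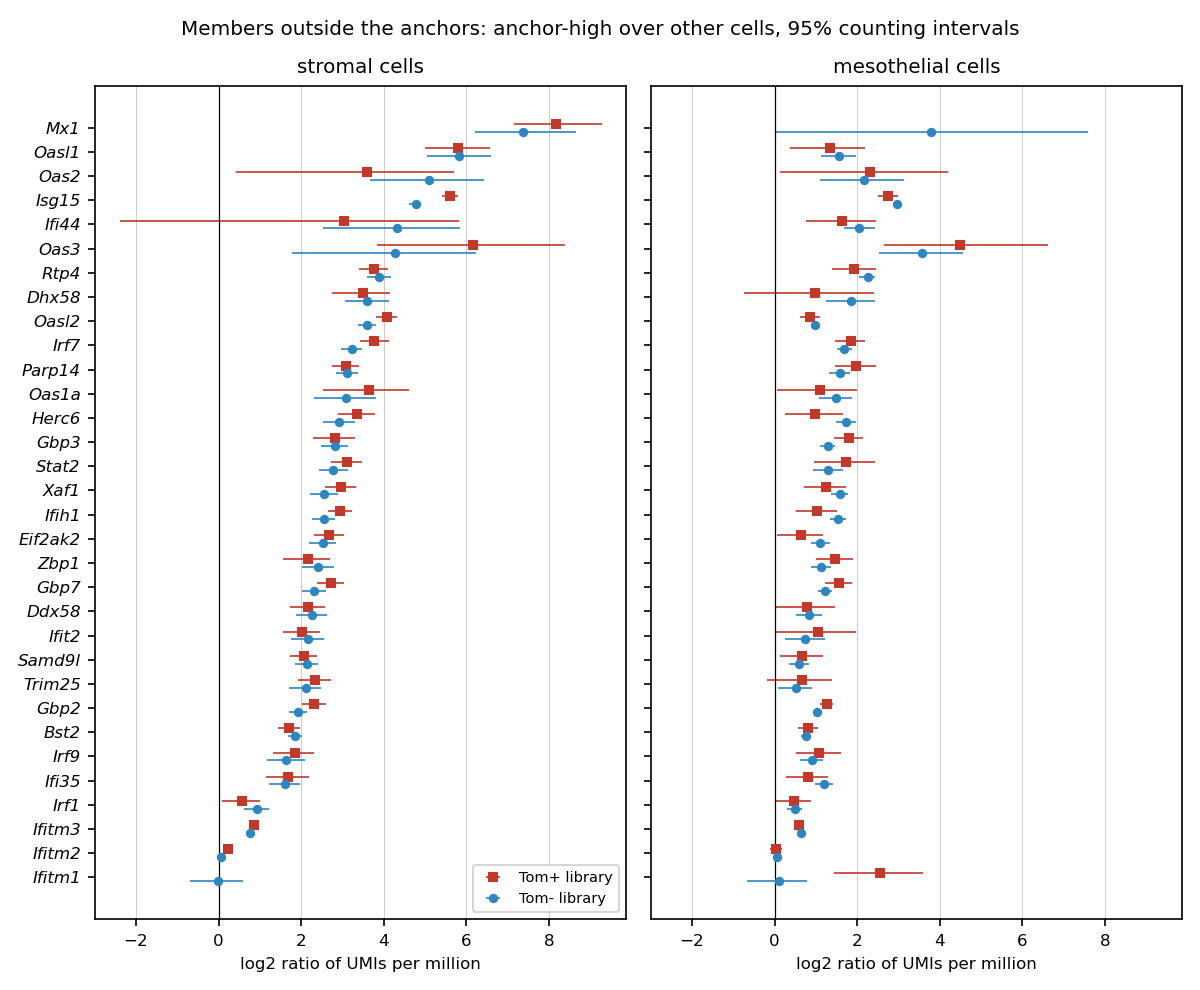
Log2 ratio of anchor-high over other cells for the interferon-stimulated genes outside the 6 anchors, in stromal and mesothelial cells of each library, with exact 95% counting intervals and no point where a group had 0 UMIs. In stromal cells Mx1 (8.16 and 7.36) is at the top and Ifitm2 (0.23 and 0.05) lies next to 0.

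Anchor-high stromal cells had about the depth of the other stromal cells. The median was 14366 against 14480 UMIs in Tom+ and 11510 against 11474 in Tom- stromal cells. Immunoglobulin genes took 0.0713% and 0.666% of their UMIs, against 6.18% and 1.62% in the other stromal cells. Without immunoglobulin-rich or immune cells the shares were 1.19% and 1.57% and the medians 2.88 and 2.57, and without shared barcodes the shares were 1.20% and 1.58% and the medians 2.62 and 2.53. The receptor genes Ifnar2 and Ifngr1 had intervals that included 0 in stromal cells of both libraries.

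Among genes outside the members with at least 20 UMIs in the anchor-high stromal cells of each library, the 10 with the highest ratio in the lower of the libraries were Gm4951, Cxcl10, Slfn8, Igtp, Phf11d, Rnf213, Dtx3l, Iigp1, Irgm1 and Trim30a. Cxcl10, a chemokine that draws T cells, had log2 ratios of 3.5 and 3.39 on 247 and 739 UMIs. The immunity-related GTPases Igtp, Iigp1 and Irgm1, which act on vacuoles with pathogens, had 3.47 and 3.17, 3.80 and 2.94, and 3.29 and 2.91. Over all stromal cells Cxcl10 stood at 43.5 and 92.0 CPM in Tom+ and Tom-, and in mesothelial cells at 234 and 278 CPM.

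Members also differed between progenitor states of the same library. In Tom+, 27 of 30 members above the floor were higher in interstitial cells than in preadipocytes, 7 of them by at least 1.5-fold against 5.70% of all genes, with a median log2 ratio of 0.27. In Tom-, 29 of 31 were higher, 11 by at least 1.5-fold against 6.22%, with a median of 0.46. One of these, Ifit3b (6.51 and 3.96 CPM), passed the floor only through interstitial cells. Rsad2 was at 23.9 CPM in interstitial cells and 5.10 CPM in preadipocytes of Tom+, and at 19.8 and 5.11 CPM in Tom-. A single Tom+ stromal cell held 69 of the 162 thinned Rsad2 UMIs. The state of that cell is not given, so the Tom+ Rsad2 values may rest on it. In Tom- stromal cells the most in 1 cell was 34 of 240. Ifit1 was at 35.0 and 12.5 CPM, and at 41.6 and 14.4 CPM. Irf7 was higher by 1.05 and 1.12 on the log2 scale, whereas Ifitm3 differed by 0.10 and 0.06. Anchor-high cells made up 2.21% (1.31 to 3.47) of interstitial cells and 0.95% (0.554 to 1.52) of preadipocytes in Tom+, and 3.30% (2.31 to 4.55) and 0.960% (0.639 to 1.38) in Tom-.

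Last, Tom+ stromal cells with a thinned tdTomato UMI were set against those without, a contrast within 1 library. There were 558 cells with and 2586 without. Both sets were sorted as Tom+, so a cell without the UMI need not lack the reporter. A tdTomato UMI was seen in 17.7% of thinned Tom+ and 6.33% of thinned Tom- stromal cells. Of 30 members, 9 were higher in cells with the reporter UMI, as were 2141 of 9897 genes. The median log2 ratio of the members was -0.21, close to the -0.20 of all genes. At least 1.5-fold lower were 7 of the 30, against 7.13% of all genes, and 2 were at least 1.5-fold higher, against 3.80%. The counting interval lay below 0 for 12 members and above 0 for 3, again without a share of all genes beside it. One of the 7, Rsad2 (4.66 and 11.5 CPM), passed the floor only through cells without the reporter UMI. Immunoglobulin took 12.4% of the UMIs of cells with the reporter UMI and 0.334% of the others. Without immunoglobulin-rich or immune cells, 417 and 2536 cells remained, and 12 of 31 members were higher, as were 4594 of 9851 genes. The median was -0.12, against -0.02 for all genes. At least 1.5-fold lower were 6 of 31, against 3.08%. Among these 6, Usp18 (-1.55 to 0.23) and Cmpk2 (-1.73 to 0.12) had intervals that included 0. Their counts in cells with the reporter UMI were 13 and 12. Over the 31 members, 5 intervals lay below 0 and 3 above. Ifit3b (6.71 and 3.39 CPM), among those higher, passed the floor only through cells with the reporter UMI. With at least 5 CPM on each side, 11 of 30 were higher and the median was -0.14. Isg15 was at 33.6 CPM with and 17.6 CPM without the reporter UMI in these cells, a log2 ratio of 0.93 (0.52 to 1.33). Rtp4 was at 8.15 and 15.6 CPM (-0.94), and Rsad2 at 6.24 and 11.4 CPM (-0.88). The Rsad2 values rest on 13 and 145 UMIs. A single cell without the reporter UMI held 69 of the 145, so the Rsad2 ratio depends on that cell. Zbp1 turned from 0.79 over all Tom+ stromal cells to -0.25 (-1.17 to 0.57) without the immunoglobulin-rich or immune cells. Anchor-high cells made up 1.44% (0.530 to 3.11) with and 1.14% (0.767 to 1.64) without the reporter UMI.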

How the data were processed

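The authors deposited UMI counts per gene and cell for each library, made with Cell Ranger 3.0.2 on mm10 per the labels and the study's methods. Cells with over 1000 and under 7000 genes and under 8% mitochondrial UMIs were kept, the study's limits. No doublet caller was run. Counts were summed per library and class and divided by total UMIs (CPM), with exact Poisson intervals for levels, exact conditional intervals for ratios and exact binomial intervals for shares. The interval of a median is the median of its members' bounds. Genes below 5 CPM on average in a comparison were left out of counts and medians. Cells were thinned once to 5000 UMIs with a fixed seed. Python 3.11.15, numpy 2.4.6 and scipy 1.17.1 were used, and the ratio and interval code was tested on simulated data. Given in full are up to 3 members with most stromal UMIs per role and every member past 2-fold on at least 50 UMIs. The members and lists were chosen with earlier results of these data known. Gene positions are from GENCODE on GRCm38. Alternatives are given in the closing section. 1 gene of the pathway lists is not reported here.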

Additional observations from a re-analysis of the deposited data

Results flagged for a closer look

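In 5 members the Tom+ over Tom- ratio pointed opposite ways in stromal and mesothelial cells, with counting intervals on opposite sides of 0. The log2 ratio was -0.18 in stromal and 0.39 in mesothelial cells for Zbp1, -0.67 and 0.19 for Gbp2, -0.68 and 0.26 for Gbp3, and -0.17 and 0.34 for Gbp7. For Isg15 it was -0.76 and 0.14, and without the barcodes that both libraries share its mesothelial ratio was 0.03 (-0.17 to 0.22). The share of all genes with intervals on opposite sides of 0 is not given, so the 5 members are a description and not a result about the list. With 1 library per group the difference was not tested.

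The barcodes outside the limits on genes and mitochondrial UMIs, which no comparison used, also held transcripts of the members. Of the 2224 barcodes that both libraries share, 506 in Tom+ and 284 in Tom- were kept, so most of the shared ones are among those outside. Summed over the members without Ifitm2 and Ifitm3, the level in the barcodes outside the limits was 962 (Tom+) and 979 CPM (Tom-), against 596 and 695 CPM in stromal and 1958 and 1836 CPM in mesothelial cells. The cells between the marker limits, 11 in Tom+ and 30 in Tom-, stood at 1305 CPM (1019 to 1646) and 1978 CPM (1782 to 2190).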

How the results depend on the processing

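Of 591 values under the alternatives, of members past 1.5-fold between the classes or between the libraries, 506 moved by less than their counting interval, 85 moved by more and 0 changed sign. These members were chosen for being far from 0, so a change of sign was unlikely from the start. Some members nearer 0 did change sign when scaled by the median ratio of all genes, as named above. Depth limits Mx1, Oas2 and Oas3, whose ratios rest on under 50 UMIs a group, and the interferon genes, with at most 10. No paired analysis was possible because each group is 1 library. For the anchor-high share in Tom+ stromal, Tom- stromal, Tom+ mesothelial and Tom- mesothelial cells, a limit of 2 anchor UMIs gave 2.58%, 3.45%, 16% and 13.4%, a limit of 5 gave 0.604%, 0.748%, 2.80% and 3.66%, and no thinning gave 4.17%, 3.96%, 31.6% and 25.2%, with the stromal order of the libraries turned. Thinning to 8000 UMIs gave 2.04% and 2.80% in stromal and 11.9% in Tom- mesothelial cells. The median mesothelial over stromal ratio in Tom- was 1.10 with median-of-ratios scaling and 1.01 without anchor-high cells. Keeping only stromal cells with lineage markers and few others left 24 Tom+ and 1107 Tom- cells. The Tom+ over Tom- stromal median was then -0.62 with 4 members at least 1.5-fold higher and 16 lower, the mesothelial over stromal median in Tom+ was 1.75, and 1 member in Tom+ and 2 in Tom- were at least 1.5-fold lower in mesothelial cells. The Tom+ stromal side of these values rests on the 24 cells. Shares of all genes past the fold are not given for the alternatives of this section, so its counts of members are descriptions. In place of the 1 member lower in Tom+ than in Tom- mesothelial cells (Rsad2), the count was 0 with mitochondrial UMIs under 5%, stricter marker limits, no shared barcodes, no top 5% of cells by UMIs or a fold of 2. With mitochondrial UMIs under 5% or no shared barcodes, 1 member was lower in Tom+ mesothelial than stromal cells, and with a fold of 2 the count was 0. A fold of 2 left 1 member lower in Tom+ stromal cells. Without the floor, 1 member was higher in Tom+ stromal and 2 in Tom+ mesothelial cells, and 2 were lower in Tom- mesothelial than stromal cells. The cause of these moves was not tested, apart from the fewer cells or members that each alternative leaves.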
